A study of Mus musculus with 6 samples.

Results

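*Spp1*, which encodes osteopontin, and 9 genes that foam cells and other lipid-laden macrophages are known for were followed in C2C12 cells, mouse myoblasts that form myotubes in low serum. The 10 genes were *Spp1*, *Lpl*, *Apoe*, *Fabp4*, *Fabp5*, *Cd36*, *Cd9*, *Lgals3*, *Gpnmb* and *Plin2*, out of 23231 genes with a count in at least 1 library. They were taken from a list of symbols that was chosen with earlier results of these data known. *Spp1* was chosen by its measured counts and TPM, because they were much higher in one group. Its values are therefore a description without a test, and the comparison asks whether the other 9 genes moved with it.

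Both groups were C2C12 cells that received lentivirus (multiplicity of infection 100), passed selection in 2 µg/ml puromycin and were differentiated for 5 days in 2% horse serum. dCas9-KRAB cells expressed a nuclease-dead Cas9 fused to the KRAB repressor domain, driven by the human ubiquitin C promoter, with no enhancer sgRNA. dCas9-KRAB-En5 cells carried the same fusion with 2 sgRNAs against Myog-En5, an enhancer of *Myog*, the gene of the muscle regulator myogenin. Each group had 3 RNA-seq libraries, and the labels do not say whether these came from separate cultures, so p-values measure only the spread between libraries. The name C2C12 is that of the labels. Macrophage markers, which a myoblast lacks, were high in all 6 libraries, as given with their values below, and the labels do not account for them, so which cells carried the RNA of the 10 genes cannot be told from these data.

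Osteopontin is a secreted, acidic phosphoprotein that binds integrins and CD44, and it is made by macrophages, osteoclasts, osteoblasts and injured muscle. In a foam cell, lipoprotein lipase (*Lpl*) frees fatty acids, CD36 takes up fatty acids and oxidized lipoprotein, FABP4 and FABP5 carry fatty acids through the cytosol, perilipin 2 (*Plin2*) coats the lipid droplet and apolipoprotein E (*Apoe*) carries cholesterol out. GPNMB, galectin-3 (*Lgals3*) and the tetraspanin CD9 accompany osteopontin in the TREM2-dependent programme of macrophages that clear lipid.

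The libraries held 31831093 to 73988425 counts. dCas9-KRAB-En5 replicate 3 stood apart, with 13991 genes listed against 17084 to 19395 in the others and 25.8% of its counts on ribosomal protein genes against 10.8% to 19.4%. The calls of the 10 genes, and those of the lists set beside them, are also given without it. *Myog* stood at 1065, 1224 and 1118 TPM in dCas9-KRAB replicates 1 to 3, at 0.379 TPM in dCas9-KRAB-En5 replicate 1 and at 0 in the other two. TPM are counts divided by the length of all annotated exons of a gene and scaled to 1000000 per library. In bulk RNA, fewer cells of a type and less RNA per cell cannot be told apart.

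Promoter windows from RefSeq (build GRCm38.p6, 250 bases before to 50 after the start) were available for 7 of the 10 genes. 3 of them are shown, for a gene with a large rise (*Spp1*), a gene that was higher by TPM in only some libraries (*Cd9*) and a gene of the same macrophage programme that stayed low (*Gpnmb*), because these windows held motif letters. Capitals mark matches, on either strand, to the letters of AP-1 (TGANTCA), RUNX (TGTGGT), PU.1 (GAGGAAG) and the M-box of MITF (CATGTG, itself one form of the E-box CANNTG). The windows lie at chr5:104434861-104435160 on the plus strand (*Spp1*), chr6:125494711-125495010 on the minus strand (*Cd9*) and chr6:49036268-49036567 on the plus strand (*Gpnmb*).
Spp1: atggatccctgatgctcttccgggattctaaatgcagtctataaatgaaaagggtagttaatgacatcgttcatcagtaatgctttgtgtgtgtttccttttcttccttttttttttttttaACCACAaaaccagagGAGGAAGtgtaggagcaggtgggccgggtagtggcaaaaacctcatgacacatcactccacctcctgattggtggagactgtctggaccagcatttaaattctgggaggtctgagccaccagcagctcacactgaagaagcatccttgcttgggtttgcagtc
Cd9: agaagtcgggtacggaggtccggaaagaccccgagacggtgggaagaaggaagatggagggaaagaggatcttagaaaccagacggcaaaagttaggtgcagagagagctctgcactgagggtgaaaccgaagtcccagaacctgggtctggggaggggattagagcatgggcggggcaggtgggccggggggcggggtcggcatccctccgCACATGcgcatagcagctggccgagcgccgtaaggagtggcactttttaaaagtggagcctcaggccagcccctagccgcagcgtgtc
Gpnmb: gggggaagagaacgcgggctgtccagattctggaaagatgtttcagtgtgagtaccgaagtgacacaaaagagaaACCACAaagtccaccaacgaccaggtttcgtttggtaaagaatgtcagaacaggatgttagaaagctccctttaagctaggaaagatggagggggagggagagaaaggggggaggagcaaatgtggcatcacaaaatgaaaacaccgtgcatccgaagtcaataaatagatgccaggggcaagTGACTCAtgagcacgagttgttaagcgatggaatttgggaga

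The *Spp1* window held RUNX letters from base -128 and PU.1 letters from base -113, counted from the start. The *Gpnmb* window held RUNX letters too, with AP-1 letters just after its start. The *Cd9* window held the M-box letters alone. Among 32851 windows of the same length, 7.81% held the AP-1 letters, 16.8% those of RUNX, 13.6% those of PU.1 and 14.2% those of the M-box. The second *Spp1* window and those of *Cd36*, *Apoe*, *Lgals3* and *Plin2* held none of the 4. *Lpl*, *Fabp4* and *Fabp5* had no window, and a link between these letters and expression was not tested.

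Among the secreted proteins, *Spp1* (chr5:104435118-104441050, plus strand, 8 exons) was the outstanding gene. It measured 466, 412 and 327 TPM in dCas9-KRAB replicates 1 to 3 and 25447, 19796 and 4986 TPM in dCas9-KRAB-En5 replicates 1 to 3. All 3 dCas9-KRAB-En5 libraries lay above all dCas9-KRAB libraries, and replicate 3 was the lowest of them. Relative to the dCas9-KRAB mean of 401 ± 69.9 TPM (SD, n = 3), the libraries stood 63.4-fold, 49.3-fold and 12.4-fold higher, and their mean was 16743 ± 10567 TPM (SD, n = 3), which is 41.7-fold higher. The edgeR estimate, which normalizes for library composition, was a log2 fold change of 5.03 ± 0.61 (SE). 

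By TPM, *Spp1* ranked 335th, 387th and 468th in the dCas9-KRAB libraries, and 1st, 2nd and 38th in the dCas9-KRAB-En5 libraries. It took 0.0326% to 0.0514% of the counts of a dCas9-KRAB library. In dCas9-KRAB-En5 cells it took 888505, 553149 and 188044 counts in replicates 1 to 3. These were 2.2% of the counts of replicate 1, 1.56% of those of replicate 2 and 0.591% of those of replicate 3. *Gm42793*, an annotated transcript that overlaps exons of *Spp1* on the same strand, received 8 to 19 counts in dCas9-KRAB and 83 to 825 in dCas9-KRAB-En5 libraries, against 20830 or more for *Spp1* in every library, so *Gm42793* held a small share of the counts of the locus.

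**Figure D1:**
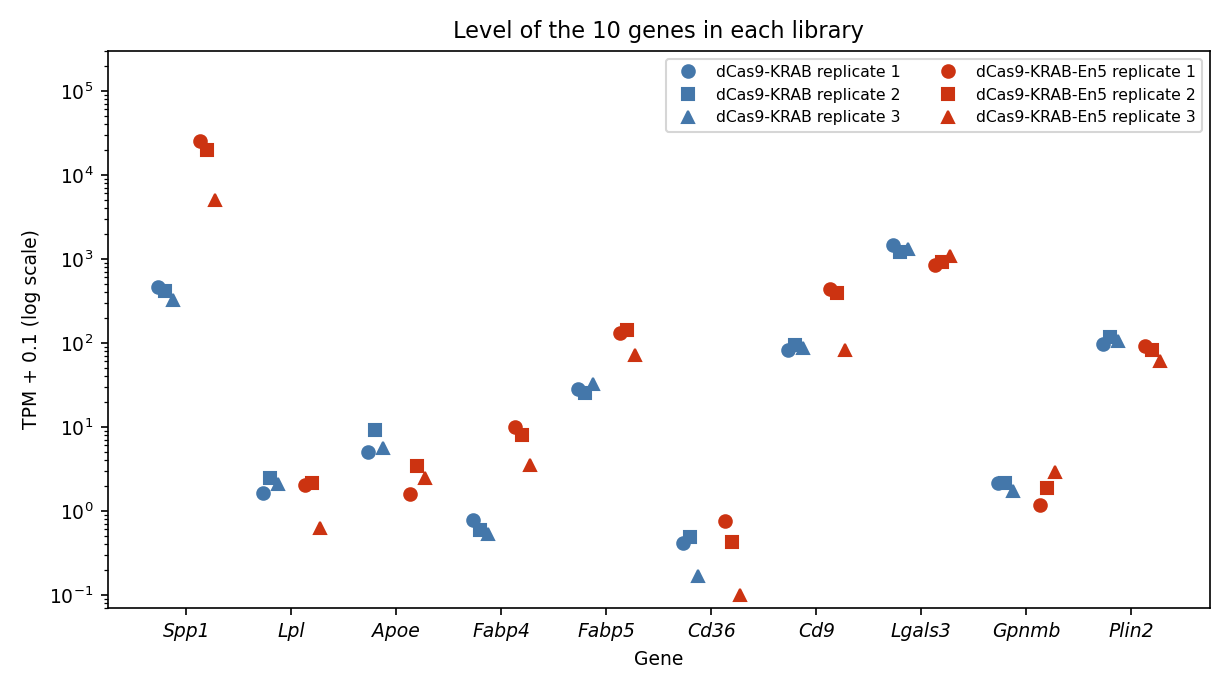
TPM + 0.1 on a log scale (y axis) of the 10 genes (x axis) in each library, with blue for dCas9-KRAB, red for dCas9-KRAB-En5 and the marker shape for the replicate. *Spp1* rises from between 327 and 466 TPM to between 4986 and 25447 TPM, *Fabp4* and *Fabp5* also lie higher in all red points, and *Cd9* in dCas9-KRAB-En5 replicate 3 lies just under the blue points.

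*Lpl* (chr8:68880491-68907448, plus strand) stayed near the bottom of the range. It measured 1.55, 2.33 and 1.97 TPM in dCas9-KRAB and 1.95, 2.07 and 0.517 TPM in dCas9-KRAB-En5 cells. The ranges overlapped, and replicate 3 of dCas9-KRAB-En5 alone lay below all dCas9-KRAB libraries. edgeR estimated a log2 fold change of -0.69 ± 0.46 (SE; adjusted p = 0.322).

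*Apoe* (chr7:19696109-19699188, minus strand) moved the other way from *Spp1*. It measured 4.86, 9.06 and 5.42 TPM in dCas9-KRAB and 1.48, 3.31 and 2.39 TPM in dCas9-KRAB-En5 cells. The groups did not overlap, but the difference did not pass the test over all 6 libraries, with a log2 fold change of -1.44 ± 0.58 (SE; edgeR, adjusted p = 0.107). Without dCas9-KRAB-En5 replicate 3 it was -2.06 (edgeR, adjusted p = 0.00837) and was called lower, in a fit that calls 14.0% of all genes lower.

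Among the genes other than *Spp1*, which was not tested, the only gene called was a fatty acid carrier. *Fabp4* (chr3:10204088-10208576, minus strand), the carrier of macrophages and fat cells, measured 0.673, 0.488 and 0.433 TPM in dCas9-KRAB and 9.77, 7.90 and 3.42 TPM in dCas9-KRAB-En5 cells. The lowest dCas9-KRAB-En5 library was well above the highest dCas9-KRAB library, and by TPM replicate 3 was the lowest of its group, as for *Spp1*. In counts scaled to 1000000 per library after TMM normalization, dCas9-KRAB-En5 replicates 1 to 3 held 19.9, 13.9 and 15.1, with replicate 2 lowest. The raw counts were 82 to 87 in dCas9-KRAB and 351 to 929 in dCas9-KRAB-En5 libraries. The libraries stood 18.4-fold, 14.9-fold and 6.43-fold above the dCas9-KRAB mean. On the log2 scale the fold change was 3.47 ± 0.52 (SE; edgeR, adjusted p = 0.00129). The call was lost without dCas9-KRAB replicate 2 (3.32, adjusted p = 0.0137) or replicate 3 (3.31, adjusted p = 0.0125), and with limma on log2(TPM + 1), which gave an adjusted p of 0.0200.

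*Fabp5* (chr3:10012548-10016607, plus strand), the epidermal and macrophage carrier, measured 28.2, 24.9 and 32.3 TPM in dCas9-KRAB and 133, 143 and 72.2 TPM in dCas9-KRAB-En5 cells. The groups did not overlap, and by TPM replicate 3 was again the lowest of its group. In counts scaled to 1000000 per library after TMM normalization, replicate 3 was instead the highest, with 254 against 215 and 200 in replicates 1 and 2. The log2 fold change was 1.82 ± 0.44 (SE; edgeR, adjusted p = 0.0172), short of the cutoff of 0.01. When the replicate number entered the model as a block, a pairing that the labels do not state, it was 1.84 (edgeR, adjusted p = 0.00893). It was then called higher, against 3.94% of all genes called higher in that model. DESeq2 also called it (1.79, adjusted p = 0.00107), against 5.88% of genes called higher. Without dCas9-KRAB-En5 replicate 3 it was 1.63 (edgeR, adjusted p = 0.00400), and also called.

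Reads of *Fabp5* can be assigned to its processed pseudogenes, so its level is uncertain. *Gm6166*, of whose 50-base words 51.1% also occur in *Fabp5*, received 2304 to 4663 counts in dCas9-KRAB libraries, where *Fabp5* received 2725 to 5161. In dCas9-KRAB-En5 libraries *Gm6166* received 4920 to 9392 counts and *Fabp5* 5895 to 10014. *Gm6166* had a log2 fold change of 1.80 ± 0.43 (SE; edgeR, adjusted p = 0.0166), close to that of *Fabp5*. With *Fabp5*, *Gm6166* and *Gm14328* added together, the counts scaled to 1000000 per library after TMM normalization (CPM) were 122, 95.2 and 146 in dCas9-KRAB and 421, 382 and 470 in dCas9-KRAB-En5 cells, a 3.51-fold difference of the means.

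The exon lengths behind TPM matter when these genes are compared with each other. The annotated exons of *Fabp4* span 4489 bases, 5.01 times its principal transcript of 896 bases, and those of *Fabp5* span 3.61 times its own. A level per length of *Fabp4* is therefore low beside genes such as *Cd36*, for which the ratio is 1.06, while both groups are divided by the same length. The annotated exons of *Fabp4* merge into 1 block over its whole locus, so its counts can include reads from introns of the principal transcript. The share of such reads in either group was not tested.

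At the cell surface, *Cd36* (chr5:17781690-17888801, minus strand), a scavenger receptor and fatty acid transporter, was close to undetected. It measured 0.318, 0.394 and 0.0684 TPM in dCas9-KRAB and 0.657, 0.329 and 0 TPM in dCas9-KRAB-En5 cells. These rest on 11 to 53 counts in dCas9-KRAB and on 50, 20 and 0 counts in dCas9-KRAB-En5 replicates 1 to 3, and 0 counts allow up to 0.0942 CPM in that library. The groups overlapped. Its log2 fold change was -0.09 ± 1.2 (SE; edgeR, adjusted p = 0.965), and its sign changed between settings, so no direction can be given.

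*Cd9* (chr6:125460266-125494791, minus strand), a tetraspanin of the plasma membrane, measured 82.4, 94.1 and 87.2 TPM in dCas9-KRAB and 433, 397 and 80.9 TPM in dCas9-KRAB-En5 cells. Replicates 1 and 2 of dCas9-KRAB-En5 stood 4.93-fold and 4.52-fold above the dCas9-KRAB mean, and replicate 3 lay just under all dCas9-KRAB libraries. On the CPM scale after TMM normalization, the values were 105 to 117 CPM in dCas9-KRAB and 402, 319 and 163 CPM in replicates 1 to 3 of dCas9-KRAB-En5, and the groups did not overlap. The log2 fold change over all libraries was 1.42 ± 0.48 (SE; edgeR, adjusted p = 0.0637). Without dCas9-KRAB-En5 replicate 3 it was 1.62 (edgeR, adjusted p = 0.00293) and called higher, in a fit that calls 11.7% of all genes higher.

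Of the remaining genes of the macrophage programme, *Lgals3* (chr14:47367751-47386160, plus strand) was among the most abundant transcripts of both groups. Galectin-3 binds beta-galactosides and is a usual marker of phagocytes. It measured 1471, 1217 and 1304 TPM in dCas9-KRAB and 834, 918 and 1088 TPM in dCas9-KRAB-En5 cells, ranking between 133rd and 215th in every library. All dCas9-KRAB-En5 libraries were lower by TPM, but after TMM normalization the groups overlapped, with 1238 to 1778 CPM in dCas9-KRAB and 704, 670 and 1992 CPM in dCas9-KRAB-En5 replicates 1 to 3. Its log2 fold change was -0.45 ± 0.55 (SE; edgeR, adjusted p = 0.606). Without dCas9-KRAB-En5 replicate 3 it was -1.24 (edgeR, adjusted p = 0.0122), still not called.

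*Gpnmb* (chr6:49036546-49070929, plus strand), a lysosomal and surface glycoprotein of lipid-laden macrophages, stayed low in both groups. It measured 2.03, 2.05 and 1.62 TPM in dCas9-KRAB and 1.08, 1.77 and 2.82 TPM in dCas9-KRAB-En5 cells. The ranges overlapped, and replicate 3, lowest of its group for *Spp1*, was the highest here. The log2 fold change was 0.17 ± 0.64 (SE; edgeR, adjusted p = 0.881). It was negative with total counts in place of TMM (-0.02), with the replicate block (-0.27) and without dCas9-KRAB-En5 replicate 3 (-1.06, adjusted p = 0.0694), so no direction can be given.

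On the lipid droplet, *Plin2* (chr4:86648386-86670060, minus strand) measured 95.7, 117 and 105 TPM in dCas9-KRAB and 90.4, 82.9 and 61.2 TPM in dCas9-KRAB-En5 cells. All dCas9-KRAB-En5 libraries were lower. The mean fell from 106 ± 10.6 to 78.2 ± 15.2 TPM (SD, n = 3 each), a ratio of 0.738. Its log2 fold change was -0.54 ± 0.45 (SE; edgeR, adjusted p = 0.426), so the difference did not pass the test.

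Over the 9 genes other than *Spp1*, edgeR called 1 higher, *Fabp4*, and 0 lower, where it called 1.52% of the 14378 genes tested higher and 4.67% lower. At an unadjusted p under 0.05, 3 were higher (*Fabp4*, *Fabp5* and *Cd9*) and 1 was lower (*Apoe*), where 16.6% and 16.3% of all genes were so. DESeq2 called 2 higher and 0 lower, beside 5.88% and 8.66% of all genes. limma on log2(TPM + 1) called 0 in either direction, beside 0.223% and 3.35% of all genes. The replicate block gave 2 higher and 0 lower, beside 3.94% and 6.79% of all genes. The median log2 fold change of the 9 genes was -0.09, beside 0.08 over all genes tested, and 4 of the 9 estimates were positive. By TPM the groups did not overlap for 2 genes that were higher (*Fabp4* and *Fabp5*) and 3 that were lower (*Apoe*, *Lgals3* and *Plin2*), where 7.76% and 19.7% of all genes were so. After TMM normalization, *Cd9* joined the higher and *Lpl* replaced *Lgals3* among the lower, where 15.4% and 20.2% of all genes were so.

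Without dCas9-KRAB-En5 replicate 3, edgeR called 3 of the 9 genes higher (*Fabp4*, *Fabp5* and *Cd9*) and 1 lower (*Apoe*), where 11.7% and 14.0% of all genes were called. This library was the lowest of its group in TPM for 7 of the 10 genes, and the highest for *Lgals3* and *Gpnmb*. By CPM after TMM normalization it was the lowest for 4 of the 10 (*Spp1*, *Lpl*, *Cd36* and *Cd9*) and the highest for 5. Its part in these results beyond the values given without it was not tested.

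**Figure D2:**
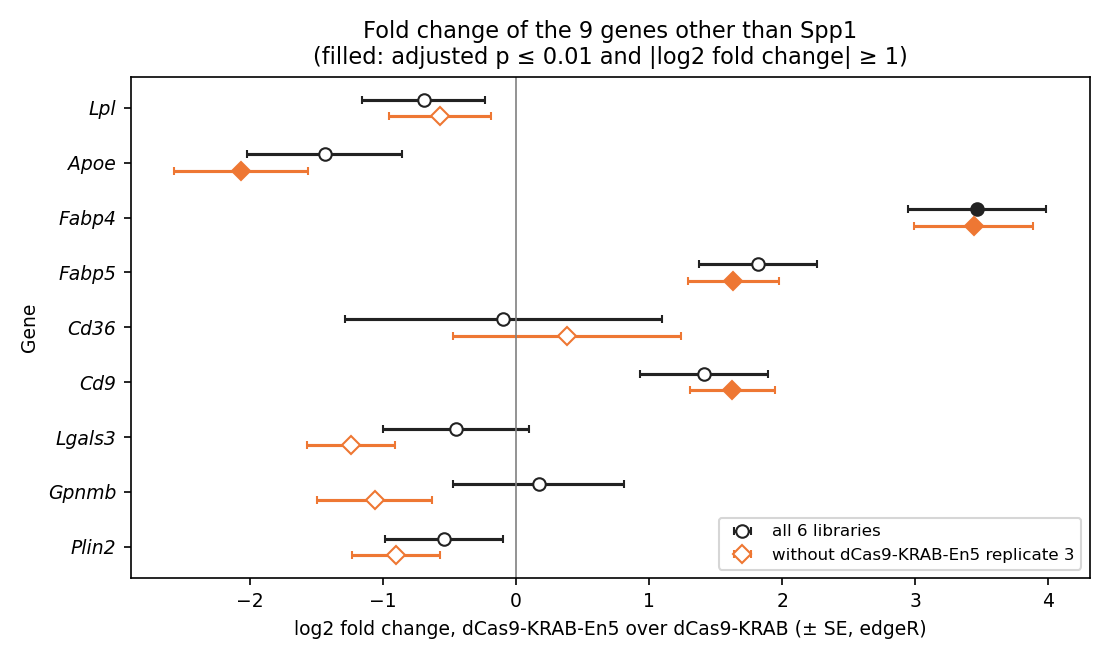
Log2 fold change of dCas9-KRAB-En5 over dCas9-KRAB (x axis, with SE from edgeR) for the 9 genes other than *Spp1* (y axis), over all 6 libraries (black circles) and without dCas9-KRAB-En5 replicate 3 (orange diamonds), with filled symbols for genes called. Only *Fabp4* is filled in black, at 3.47, and *Apoe*, *Fabp5* and *Cd9* are filled as well in orange.

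In dCas9-KRAB cells the 10 genes ordered by mean TPM were *Lgals3* (1331 ± 129), *Spp1* (401 ± 69.9), *Plin2* (106 ± 10.6), *Cd9* (87.9 ± 5.87), *Fabp5* (28.5 ± 3.71), *Apoe* (6.45 ± 2.28), *Lpl* (1.95 ± 0.392), *Gpnmb* (1.90 ± 0.240), *Fabp4* (0.531 ± 0.126) and *Cd36* (0.260 ± 0.171), each with its SD over 3 libraries. The ranges of mean ± SD overlapped for *Lpl* and *Gpnmb* and for *Fabp4* and *Cd36*. The order of *Lpl* and *Gpnmb* differed between libraries and is not resolved, while *Fabp4* lay above *Cd36* in each dCas9-KRAB library. The exon lengths given above also bear on any order between genes. In dCas9-KRAB-En5 cells *Spp1* led, followed by *Lgals3* (947 ± 130), *Cd9* (304 ± 194), *Fabp5* (116 ± 38.2) and *Plin2* (78.2 ± 15.2). There *Fabp4* (7.03 ± 3.26) had passed *Apoe* (2.39 ± 0.916), while *Gpnmb* (1.89 ± 0.875), *Lpl* (1.51 ± 0.865) and *Cd36* (0.329 ± 0.329) closed the order. The ranges of mean ± SD overlapped between *Cd9* and *Fabp5*, between *Fabp5* and *Plin2*, among *Apoe*, *Gpnmb* and *Lpl*, and between *Lpl* and *Cd36*. Within each dCas9-KRAB-En5 library, *Cd9* lay above *Fabp5*, *Fabp5* above *Plin2* and *Lpl* above *Cd36*, while the order of *Apoe*, *Gpnmb* and *Lpl* differed between libraries.

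Genes with a profile like that of *Spp1* were sought among 5206 other genes with a mean of at least 10 TPM, by the root mean square difference between log2(TPM + 1) profiles centred on their means over the 6 libraries. This is a description of values that chose *Spp1*, and a gene can reach that mean through 1 group alone, as *Ramp3*, *Gm17709* and *Gm9115* did. The nearest were *Gm7993* (a difference of 0.636 on the log2 scale), *Odc1* (0.662), *Ramp3* (0.704), *Gm17709* (0.744) and *Gm9115* (0.763). *Odc1*, ornithine decarboxylase of polyamine synthesis, measured 105, 131 and 118 TPM in dCas9-KRAB and 3966, 3042 and 476 TPM in dCas9-KRAB-En5 cells. *Gm7993*, *Gm17709* and *Gm9115* are processed pseudogenes of which 29.6% to 41.0% of the 50-base words occur in *Odc1*, so they and *Odc1* may share reads and count as 1 profile. *Ramp3*, a co-receptor for adrenomedullin, measured 1.60, 0.542 and 0.356 TPM in dCas9-KRAB and 163, 35.8 and 42.1 TPM in dCas9-KRAB-En5 cells. *Fabp4*, with a mean under 10 TPM, was not ranked. Of the lipid genes with at least 10 TPM, *Fabp5* ranked 219th (1.65), *Cd9* 383rd (1.83), *Plin2* 3225th (2.83) and *Lgals3* 3555th (2.92).

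The genes around the 10 were read from 13 lists by role, with 149 further genes, of which 110 were tested. edgeR called 1 of them higher (0.909%) and 11 lower (10.0%), beside the 1.52% and 4.67% of all genes. Their median log2 fold change was 0.23. At an unadjusted p under 0.05, 20 were higher and 26 were lower, beside 16.6% and 16.3% of all genes. With the replicate block, 3 were called higher and 19 lower, beside 3.94% and 6.79% of all genes. Without dCas9-KRAB-En5 replicate 3, 12 were called higher and 25 lower, in a fit that called 11.7% and 14.0% of all genes. All list counts without that library below are from that fit. The shares of all genes given here for each fit also stand beside the counts of the single lists below. For DESeq2 those shares are 5.88% higher and 8.66% lower.

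**Figure D3:**
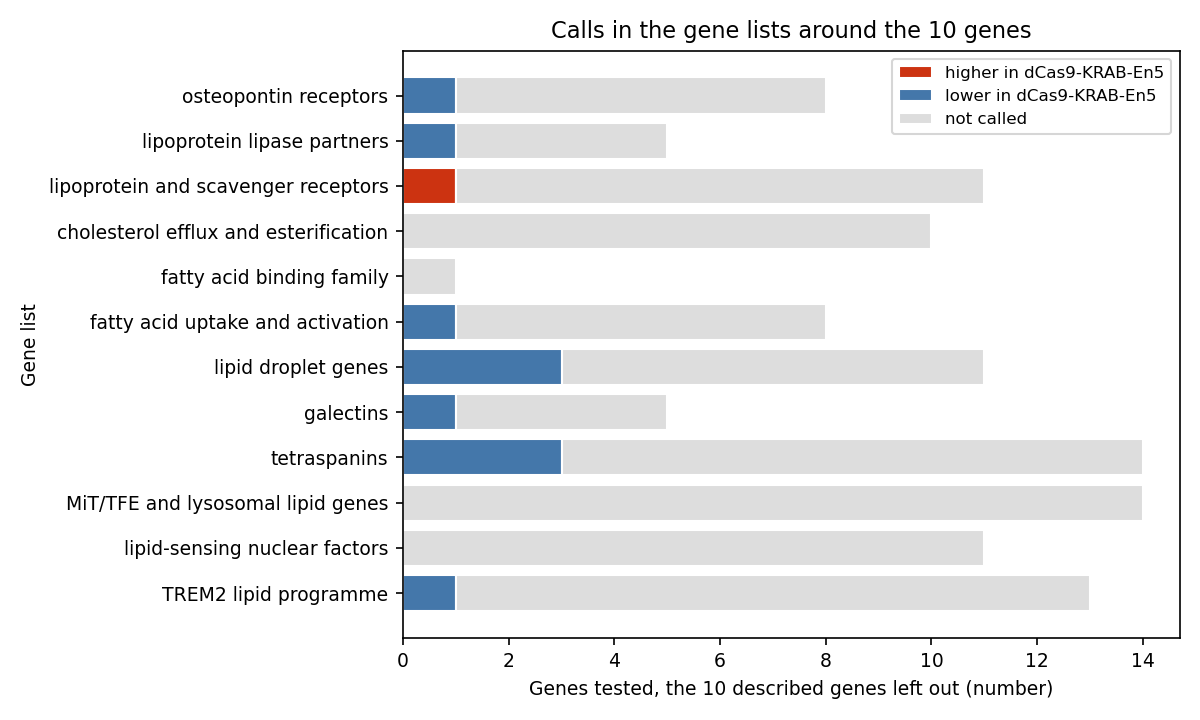
Number of genes tested (x axis) in each list (y axis), leaving out the 10 genes described, split into those edgeR called higher (red) or lower (blue) in dCas9-KRAB-En5 and those not called (grey). 1 gene is called higher, in the lipoprotein and scavenger receptors, and lower calls are most numerous among lipid droplet genes and tetraspanins, with 3 each. The SIBLING family had no gene tested.

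Of the 10 osteopontin receptor genes, *Itga8* and *Itga9* were at 0 in all libraries and *Itgb6* was at 0 in dCas9-KRAB-En5 cells, while the other 7 had counts in every library. Of 8 receptor genes tested, none was called higher and *Itgb6* was called lower, from 0.124 to 0.217 TPM to 0 in every dCas9-KRAB-En5 library, at least 8.55-fold lower against 3 counts per library (edgeR, adjusted p = 0.00992). That call was lost without any library but dCas9-KRAB-En5 replicate 3, with adjusted p between 0.0367 and 0.0580, and with the replicate block (adjusted p = 0.0159). At an unadjusted p under 0.05, 3 receptors were higher and 1 was lower, beside 16.6% and 16.3% of all genes. DESeq2 called 2 receptors higher, *Itga4* and *Itgav*, and 1 lower, and without dCas9-KRAB-En5 replicate 3 edgeR called 3 higher, *Itga4*, *Itgav* and *Cd44*, and *Itgb6* lower. *Itga4*, *Itgav* and *Cd44* are given here after their values were seen. *Itga4*, the alpha chain of VLA-4, measured 7.60, 5.76 and 3.21 TPM in dCas9-KRAB and 53.3, 45.7 and 5.68 TPM in dCas9-KRAB-En5 cells (log2 fold change 2.23 ± 0.60, SE; edgeR, adjusted p = 0.0265). It was called with the replicate block (2.07, adjusted p = 0.00591), with DESeq2 (2.14, adjusted p = 0.00238) and without replicate 3 (2.55, edgeR, adjusted p = 0.00109). *Cd44* measured 10.6, 15.1 and 10.9 TPM in dCas9-KRAB and 41.3, 53.8 and 10.3 TPM in dCas9-KRAB-En5 cells, and *Itgav* 1.45, 1.35 and 0.752 TPM and then 16.6, 8.28 and 0.663 TPM. For both, replicate 3 lay below every dCas9-KRAB library while replicates 1 and 2 lay above them all. The log2 fold change of *Itgav* was 2.40 ± 0.72 (SE; edgeR, adjusted p = 0.0413), and it was called with DESeq2 (2.30, adjusted p = 0.0064) and without replicate 3 (2.82, edgeR, adjusted p = 0.00109). That of *Cd44* was 1.16 ± 0.45 (SE; edgeR, adjusted p = 0.0918), and it was called without replicate 3 (1.34, edgeR, adjusted p = 0.00829). The other SIBLING genes, which lie next to *Spp1* on chromosome 5 and encode mineral matrix proteins, were at or near 0 in all libraries. *Dspp* and *Mepe* were not listed, and *Ibsp* and *Dmp1* reached at most 0.0685 TPM.

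Among the partners of lipoprotein lipase, *Angptl4*, its secreted inhibitor, was called lower and was the only call among 5 genes tested. It measured 15.5, 44.1 and 30.0 TPM in dCas9-KRAB and 2.88, 3.23 and 2.34 TPM in dCas9-KRAB-En5 cells, without overlap. On the log2 scale it changed by -3.47 ± 0.52 (SE; edgeR, adjusted p = 0.00131), and the call held with each library left out. *Gpihbp1*, the endothelial anchor of the lipase, and *Apoc2*, its activator, were at 0 in all libraries.

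Of 11 lipoprotein and scavenger receptors tested, *Lrp8*, a receptor for apolipoprotein E and reelin, was called higher and none lower. It measured 0.206, 0.764 and 0.329 TPM in dCas9-KRAB and 5.64, 8.52 and 0.864 TPM in dCas9-KRAB-En5 cells (log2 fold change 3.13 ± 0.64, SE; edgeR, adjusted p = 0.00760). The call was lost without any 1 of the dCas9-KRAB replicates or dCas9-KRAB-En5 replicate 2, with adjusted p between 0.0182 and 0.0557. At an unadjusted p under 0.05, 5 receptors were higher and 0 were lower, beside 16.6% and 16.3% of all genes. Without dCas9-KRAB-En5 replicate 3 edgeR called 2 receptors higher, *Lrp8* and *Lrp1*. Over all 6 libraries, 0 of the 10 genes of cholesterol efflux and esterification were called by edgeR, DESeq2 or limma, and 2 were higher at an unadjusted p under 0.05. edgeR called 2 of them higher without dCas9-KRAB-En5 replicate 3, *Abca1*, the cholesterol exporter, and *Soat1*, which esterifies cholesterol.

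Of the fatty acid binding family beyond *Fabp4* and *Fabp5*, only *Fabp3* was tested. *Fabp3*, the heart and muscle carrier, is given here after its values were seen. It measured 26.9, 19.3 and 17.1 TPM in dCas9-KRAB and 0.172, 0.358 and 2.65 TPM in dCas9-KRAB-En5 cells, without overlap and opposite to *Fabp4* and *Fabp5*. The log2 fold change was -3.86 ± 1.1 (SE; edgeR, adjusted p = 0.0308), and it was called lower with the replicate block (-5.19, adjusted p = 0.00190) and without dCas9-KRAB-En5 replicate 3 (-6.96, edgeR). Among 8 genes of fatty acid uptake and activation, *Acsl6*, an acyl-CoA synthetase, was called lower and none higher. It went from 0.295 to 0.647 TPM to 0 in every dCas9-KRAB-En5 library, at least 32.2-fold lower against 3 counts per library (edgeR, adjusted p = 0.00150), and the call was lost without dCas9-KRAB replicate 1 (adjusted p = 0.0254). *Acsl1* was called higher, beside *Acsl6* lower, in the fit without dCas9-KRAB-En5 replicate 3.

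Lipid droplet genes other than *Plin2* were called in the lower direction. Of 11 tested, 3 were lower and none higher. *G0s2*, the inhibitor of the lipase ATGL, measured 23.9, 26.1 and 30.8 TPM in dCas9-KRAB and 0.921, 0.0677 and 1.20 TPM in dCas9-KRAB-En5 cells (log2 fold change -5.01 ± 0.93, SE; edgeR, adjusted p = 0.0050). *Plin4*, a perilipin of muscle and fat, measured 0.221 to 0.714 TPM and then 0 to 0.0297 TPM (-5.13 ± 1.0, SE; adjusted p = 0.00754). *Dgat2*, which makes triglyceride, measured 1.94 to 3.57 TPM and then 0.198 to 0.689 TPM (-2.84 ± 0.60, SE; adjusted p = 0.00885). The call of *G0s2* was lost without any 1 dCas9-KRAB replicate (adjusted p between 0.0112 and 0.0421), and those of *Plin4* and *Dgat2* without any library but dCas9-KRAB-En5 replicate 3 (adjusted p between 0.0158 and 0.0588). *Hilpda*, a hypoxia-induced droplet protein given here after its values were seen, went the other way in part, with 34.1, 20.9 and 21.7 TPM in dCas9-KRAB and 228, 99.6 and 25.3 TPM in dCas9-KRAB-En5 cells (log2 fold change 1.81 ± 0.57, SE; edgeR, adjusted p = 0.0490). It was called higher without dCas9-KRAB-En5 replicate 3 (2.08, edgeR, adjusted p = 0.00587), where 4 droplet genes were called lower, *Plin3* added to the 3 above.

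Among the relatives of *Lgals3* and *Cd9*, the calls were in the lower direction. Of 5 galectin genes tested other than *Lgals3*, *Lgals9*, a galectin of immune cells, was called lower and none higher. It measured 101, 334 and 263 TPM in dCas9-KRAB and 19.8, 46.6 and 29.0 TPM in dCas9-KRAB-En5 cells (log2 fold change -2.91 ± 0.60, SE; edgeR, adjusted p = 0.00811). The call was lost without any library but dCas9-KRAB-En5 replicate 3, with adjusted p between 0.0215 and 0.0381. With the replicate block 3 galectin genes were called lower, *Lgals1* among them, which is named here after its values were seen and measured 18964, 12711 and 13748 TPM and then 1073, 969 and 5331 TPM. Leaving out dCas9-KRAB-En5 replicate 3 also gave 3 lower calls, *Lgals1*, *Lgals9* and *Lgals3bp*.

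Of 14 tetraspanins tested other than *Cd9*, 3 were called lower and none higher, and 6 were called lower with the replicate block and 9 without dCas9-KRAB-En5 replicate 3. At an unadjusted p under 0.05 (edgeR), 8 were lower and 2 higher, beside 16.3% and 16.6% of all genes. The 2 higher were *Cd37* and *Cd53*, named here after their values were seen. *Tspan7* went from 3.21 to 6.17 TPM to 0 in every dCas9-KRAB-En5 library, at least 230-fold lower against 3 counts per library. *Tspan15*, a partner of the protease ADAM10, went from 19.1 to 21.1 TPM to 0.130 to 0.235 TPM (log2 fold change -6.78 ± 0.71, SE; edgeR, adjusted p = 0.000114), and both calls held with each library left out. *Tspan9* went from 6.68, 24.9 and 15.1 TPM to 1.14, 1.09 and 1.07 TPM (-3.81 ± 0.60, SE; adjusted p = 0.00178), a call lost without dCas9-KRAB replicate 2 (adjusted p = 0.0107).

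Of the 13 tested genes of the TREM2 lipid programme outside the 10, *Axl*, a receptor for apoptotic cells, was called lower and none higher. It measured 19.2, 79.6 and 53.9 TPM in dCas9-KRAB and 3.33, 2.92 and 3.44 TPM in dCas9-KRAB-En5 cells (log2 fold change -3.92 ± 0.64, SE; edgeR, adjusted p = 0.00236). The call was lost without dCas9-KRAB replicate 2 (adjusted p = 0.0120) and stood just over the cutoff without replicate 1. *Syk*, *Trem2* and *Cd63* are given here after their values were seen. *Syk*, the kinase that signals behind TREM2, measured 4.44, 7.93 and 5.73 TPM in dCas9-KRAB and 42.0, 43.8 and 8.10 TPM in dCas9-KRAB-En5 cells, higher in every library (log2 fold change 2.01 ± 0.48, SE; edgeR, adjusted p = 0.0164). It was called higher with DESeq2 (1.94, adjusted p = 0.00111), without the low-count filter and without dCas9-KRAB-En5 replicate 3 (2.23, edgeR, adjusted p = 0.000896). *Trem2*, the lipid receptor itself, measured 73.4, 83.3 and 96.6 TPM in dCas9-KRAB and 52.7, 75.5 and 144 TPM in dCas9-KRAB-En5 cells, with overlap and with replicate 3 highest, as for *Gpnmb* (log2 fold change 0.32 ± 0.65, SE; edgeR, adjusted p = 0.766), and its sign changed with the replicate block (-0.17) and without replicate 3 (-1.04). *Cd63*, a tetraspanin of lysosomes and exosomes, measured 1372, 886 and 912 TPM and then 110, 106 and 343 TPM (-2.198 ± 0.78, SE; adjusted p = 0.0729), and was called lower with the replicate block (adjusted p = 0.00535) and without replicate 3 (-3.92, edgeR). Without that library, *Syk* was the 1 gene of the 13 called higher, and 3 were called lower, *Axl*, *Cd63* and *Csf1*.

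Of the regulators, none of 14 genes of the MiT/TFE factors and lysosomal lipid handling and none of 11 lipid-sensing nuclear factors was called by edgeR over all libraries. At an unadjusted p under 0.05, 3 of the former were higher, and of the latter 1 was higher and 3 were lower. DESeq2 called 1 of the former higher and 2 of the latter lower, as did the replicate block, and limma called 1 of the latter lower. With dCas9-KRAB-En5 replicate 3 left out, edgeR called 2 of the former higher, *Mitf* and *Npc1*, and 3 of the latter lower, *Pparg*, *Rxra* and *Klf4*. *Mitf* and *Pparg* are given here after their values were seen. *Mitf*, a factor of osteoclasts and pigment cells that binds the M-box, measured 1.62, 0.785 and 0.696 TPM in dCas9-KRAB and 16.4, 10.98 and 1.18 TPM in dCas9-KRAB-En5 cells (log2 fold change 2.74 ± 0.68, SE; edgeR, adjusted p = 0.0194, 0.00315 with the block and 0.000944 without replicate 3). *Pparg*, the fatty acid receptor known to act on *Fabp4*, *Cd36* and *Plin2*, measured 1.24, 1.47 and 1.06 TPM in dCas9-KRAB and 0.128, 0 and 0 TPM in dCas9-KRAB-En5 cells (-5.09 ± 1.2, SE; edgeR, adjusted p = 0.0144, and 0.00513 with the block).

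Markers of the cell types that use these genes were summed in each library. The 10 myogenic markers summed to 14131 to 17157 TPM in dCas9-KRAB and to 11.4 to 19.7 TPM in dCas9-KRAB-En5 libraries, and edgeR called 10 of 10 lower, with *Myog*, *Myod1*, *Myf5*, *Ckm*, *Tnnt3*, *Mymk* and *Myh3* under 1 TPM in each of these. *Des*, desmin, kept 7.87, 5.31 and 13.9 TPM there, against 383 to 1577 TPM in dCas9-KRAB, and *Acta1* and *Mylpf* kept 0.228 to 5.81 TPM. Macrophage markers were present in both groups. The 15 markers summed to 5408 to 8216 TPM in dCas9-KRAB and to 12276 to 20487 TPM in dCas9-KRAB-En5 libraries, 6 of them stood at 10 TPM or more in every library, and 5 stood under 1 TPM in every library, *Mrc1*, *C1qa*, *C1qb*, *C1qc* and *Mertk*. *Lyz2*, lysozyme, measured 4815, 1896 and 2808 TPM and then 13210, 6938 and 11005 TPM, and *Tyrobp*, the adaptor of TREM2, 1727, 1048 and 1358 TPM and then 1818, 1221 and 2547 TPM. The mean of *Lyz2* alone went from 3173 to 10384 TPM, so this 1 gene made up most of the change in the sums. *Lyz2* was not called (log2 fold change 1.70 ± 0.64, SE; edgeR, adjusted p = 0.0869), and after TMM normalization its groups overlapped. Of 11 macrophage markers tested, *Adgre1* (F4/80) was called higher and none lower, from 7.62 to 17.7 TPM to 29.6 to 135 TPM (log2 fold change 2.68 ± 0.54, SE; edgeR, adjusted p = 0.00706), a call lost without any library but dCas9-KRAB-En5 replicate 3 (adjusted p between 0.0119 and 0.0589). At an unadjusted p under 0.05 (edgeR), 4 of the 11 were higher and 0 lower, beside 16.6% and 16.3% of all genes. The median log2 fold change of the 11 was 0.96. The sign of *Tyrobp* turned without replicate 3 (-0.48), a fit in which 3 macrophage markers were called higher, *Adgre1*, *Itgam* and *Ptprc*. Their part in the rise of *Spp1*, *Fabp4* and *Fabp5* was not tested.

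**Figure D4:**
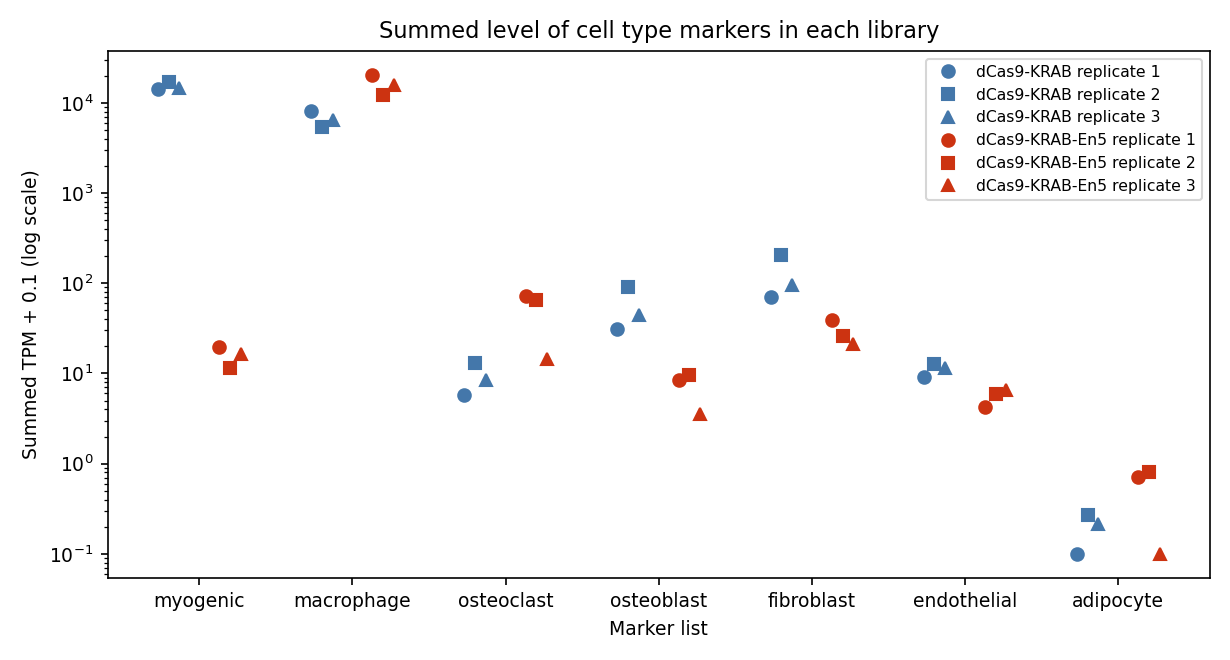
Summed TPM + 0.1 on a log scale (y axis) of 7 marker lists (x axis) in each library, with colour for the group and marker shape for the replicate. Myogenic markers drop from at least 14131 TPM to at most 19.7 TPM in all dCas9-KRAB-En5 libraries, macrophage markers lie between 5408 and 20487 TPM in all 6, and adipocyte markers stay at or under 0.714 TPM.

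Fat cells also express *Fabp4*, *Lpl*, *Cd36* and *Plin2*, and their defining markers were at or near 0. The 10 adipocyte markers summed to 0 to 0.714 TPM in a library, with *Adipoq* and *Lep* at 0 throughout. Osteoclasts and osteoblasts are the skeletal sources of osteopontin. The 10 osteoclast markers summed to 5.67 to 13.1 TPM in dCas9-KRAB and to 14.4 to 71.5 TPM in dCas9-KRAB-En5 libraries. *Acp5*, which encodes the tartrate-resistant acid phosphatase that osteopontin is a substrate of, was called higher, from 0.513 to 1.74 TPM to 4.24 to 18.8 TPM (log2 fold change 3.04 ± 0.65, SE; edgeR, adjusted p = 0.00959), a call lost without any library but dCas9-KRAB-En5 replicate 3 (adjusted p between 0.0134 and 0.0488). Of the 5 osteoclast markers tested, 5 were higher at an unadjusted p under 0.05 (edgeR), where 16.6% of all genes were so. Their median log2 fold change was 2.09, beside 0.08 over all genes and 0.96 over the macrophage markers tested. *Acp5* and the other 4 are given after their values were seen. The other 4 had log2 fold changes of 2.09 ± 0.52 for *Mmp9*, 1.81 ± 0.55 for *Nfatc1*, 2.32 ± 0.66 for *Tnfrsf11a* and 1.58 ± 0.71 for *Dcstamp* (SE; edgeR, adjusted p between 0.0196 and 0.147). *Acp5*, *Mmp9*, *Nfatc1* and *Tnfrsf11a* were called higher without dCas9-KRAB-En5 replicate 3. Of the osteoclast markers that were not tested, *Ctsk* reached at most 0.141 TPM, *Ocstamp* 0.0806 TPM, *Atp6v0d2* 0.0869 TPM and *Oscar* 0.179 TPM, and *Calcr* was at 0. The 10 osteoblast markers summed to 30.6 to 91.7 TPM and then to 3.42 to 9.43 TPM, with *Bglap* and *Col1a1* called lower, the latter call lost without any library but dCas9-KRAB-En5 replicate 3 (adjusted p between 0.0111 and 0.0290). Endothelial markers summed to 8.98 to 12.7 TPM and then to 4.15 to 6.45 TPM with 0 calls by edgeR, DESeq2 or limma over all libraries, 1 marker higher at an unadjusted p under 0.05 and *Egfl7* called lower by edgeR without dCas9-KRAB-En5 replicate 3. The sums were almost all *Egfl7* (8.89, 12.4 and 11.3 TPM, then 3.55, 4.89 and 6.24 TPM). The other 9 markers stayed under 1 TPM in every library. Of 3 endothelial markers tested, 2 had a positive log2 fold change, and the median of the 3 was 1.07. Fibroblast markers summed to 70.4 to 206 TPM and then to 20.9 to 39.3 TPM with *Col1a1* called lower. Of 6 fibroblast markers tested, 5 were lower and 0 higher at an unadjusted p under 0.05 (edgeR), beside 16.3% and 16.6% of all genes. Their median log2 fold change was -1.74. DESeq2 called 3 of them lower, beside 8.66% of all genes. With the replicate block, 2 macrophage markers and 2 osteoclast markers were called higher and 2 fibroblast markers lower.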

How the data were processed

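RNA-seq of 6 libraries was used, 3 of dCas9-KRAB and 3 of dCas9-KRAB-En5 cells, grouped by their labels. The authors aligned reads with HISAT2 2.2.1 to GRCm38, ran featureCounts for reads per gene and deposited raw counts. TPM were deposited beside the counts by the authors. The annotation release and strand setting are not given in the sources used here. Implied gene lengths were within 1% of the GENCODE exon length for 98.62% of genes. Genes not listed in a library were taken as 0, and 23155 of 23231 IDs matched a symbol.

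Counts were compared with edgeR 4.0.16 (TMM, filterByExpr, quasi-likelihood test, group alone) over 14378 genes, with Benjamini-Hochberg adjustment, and a call needed both adjusted p ≤ 0.01 and |log2 fold change| ≥ 1. The script was tested on simulated data. Standard errors were derived from the F statistic. DESeq2 1.42.0, limma 3.58.1 and the other settings of the closing section were alternatives. Lower bounds used 3 counts per library, which covers counting error only.

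The replicate number, taken from the labels, was used as a pairing in the block model, and the labels do not say whether same-numbered libraries were handled together. Deviations from the group mean correlated across genes at 0.262, 0.214 and 0.290 for same-numbered libraries, against -0.340 to -0.051 for other pairs. Deviations within a group cancel out by construction, so positive values for some pairs force negative values for others. These correlations therefore cannot establish a pairing.

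The members and lists were chosen with earlier results of these data known. Genes were named by rule: the 10 members, *Myog*, the 5 profiles nearest to *Spp1* and, outside the marker lists, up to 3 called genes per list with the smallest adjusted p. In marker lists the rule took the 2 genes with the highest median TPM. All other genes were named after their values were seen, also where the text does not say so. These include *Adgre1*, *Acp5* and list genes named only for a call in an alternative fit. Promoter sequences are from RefSeq (GRCm38.p6).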

Additional observations from a re-analysis of the deposited data

How the results depend on the processing

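Of the 9 genes other than *Spp1*, 1 was called higher and 0 lower over all libraries. The higher count was 2 with the replicate block, with DESeq2 and with the looser cutoff (adjusted p ≤ 0.05), and 0 with limma on log2(TPM + 1) or log2(TPM + 0.1). It ranged from 0 to 3 with each library left out, 0 without dCas9-KRAB replicate 2 or 3 and 3 without dCas9-KRAB-En5 replicate 3, and the lower count from 0 to 1. Of the list genes, 1 was called higher and 11 lower. The higher count was 0 with total counts and with both limma tests, 8 without the low-count filter, 3 with the replicate block, 5 with DESeq2 and 7 at the looser cutoff, and 0 to 12 with each library left out. The lower count was 21 without the filter, 6 with at least 10 counts in every library, 19 with the replicate block, 18 with DESeq2 and at the looser cutoff, and 4 to 25 with each library left out. Over all genes, 219 were called higher and 671 lower. The higher count was 70 with total counts, 1004 without the filter, 567 with the replicate block, 967 with DESeq2, 32 and 66 with limma, 1069 at the looser cutoff and 6 to 1787 with each library left out. The lower count was 1194 without the filter, 339 with at least 10 counts, 1423 with DESeq2, 1380 at the looser cutoff and 216 to 2134 with each library left out. The cause of these shifts was not tested.

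The sign of *Gpnmb* turned with total counts (-0.021), the replicate block (-0.27) and limma (-0.048 and -0.10), and its value ranged from -1.06, without dCas9-KRAB-En5 replicate 3, to 0.57 with each library left out. That of *Cd36* turned with total counts (0.094) and limma on log2(TPM + 1) (0.055), ranged from -1.18 to 0.38 with each library left out, and could not be fitted with at least 10 counts in every library. That of *Trem2* turned with the block (-0.17) and limma (-0.014 and -0.015) and ranged from -1.04 to 0.72 with each library left out. That of *Tyrobp* turned without dCas9-KRAB-En5 replicate 3 (-0.48) and ranged up to 0.95 with each library left out. The other genes these settings were run for kept their direction. Beside the calls given with it in the report, the replicate block changed no other call of the 10 genes. The upper-quartile and DESeq2 size factors left the calls of the 10 genes as they were. At 11 to 53 counts per dCas9-KRAB library, the low counts limit the estimate for *Cd36*.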
